A study of Mus musculus with 12 samples.

Results

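The transforming growth factor beta (TGF-beta) pathway was followed in mouse kidney RNA through 9 genes that cover its steps: the ligands Tgfb1, Tgfb2 and Tgfb3, the receptors Tgfbr1 and Tgfbr2, the signal carriers Smad2 and Smad3, the inhibitor Smad7, and Ccn2, a gene that the pathway switches on. They were chosen by symbol, as the genes of the count table that carry 1 of these 9 names, and they make up 9 of 57490 genes. Each name matched 1 gene. All 9 had enough counts to be tested.

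TGF-beta ligands are secreted bound to a latency peptide and lie inactive in the matrix until integrins or proteases free them. A freed ligand binds the receptor encoded by Tgfbr2, which recruits and phosphorylates the one encoded by Tgfbr1, and this kinase in turn phosphorylates Smad2 and Smad3, which enter the nucleus with Smad4 and regulate genes. In the kidney the pathway is known for driving matrix production by mesangial cells and fibroblasts, and it has long been studied in diabetic kidney disease.

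RNA came from the kidneys of 12 male mice aged 13 weeks, 1 library per mouse and 4 mice in each of 3 groups. Ctrl were age-matched heterozygotes on the BKS background (db/+, also written db/m), which carry 1 normal copy of the leptin receptor gene, and they received purified water by gavage. Model were db/db mice of the strain BKS. Cg-Dock7m +/+ Leprdb/JNju, homozygous for the leptin receptor mutation Leprdb, with the same water. YHY were db/db mice of that strain given a water extract of Yiqi Huoxue Yangyin Decoction, a Chinese herbal formula, at 6.24 g/mL by gavage. Water or extract was given once daily for 4 weeks, and db/db mice had entered the study only if their random blood glucose was high. The labels name the tissue as kidney and the study's design text as renal cortex, and messenger RNA was captured by its poly(A) tail. Which of the dose groups was sequenced is not stated.

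Total counts per library ran from 24415658 (Model 4) to 33276634 (Ctrl 1). Transcripts of the mitochondrial genome (mt- genes) took 18.6%, 22.7%, 18.4% and 18.5% of counts in Ctrl 1 to 4, 41.2%, 58.9%, 55.3% and 53.4% in Model 1 to 4, and 53.8%, 64.6%, 54.6% and 54.2% in YHY 1 to 4. Every db/db library thus held a larger mitochondrial share than every Ctrl library, with means of 19.5% ± 2.12 for the Ctrl group, 52.2% ± 7.68 for Model and 56.8% ± 5.21 for YHY (SD, n = 4), and left fewer counts for nuclear genes, from 8902764 (YHY 2) to 27122687 (Ctrl 3). Levels of 1 gene between mice are given as CPM, counts per 1000000 counts of a library, scaled by the trimmed mean of M values (TMM). Levels of different genes are compared as FPKM, the same CPM divided by gene length in kb.

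Markers of kidney cell types were present in all 12 libraries. Summed CPM of 6 proximal tubule markers ran from 1284 (YHY 1) to 4945 (Ctrl 2), with Slc34a1 the most abundant, and 3 markers of the loop of Henle summed to between 665.4 (Model 3) and 2058 (Ctrl 3), with Umod the most abundant in each Ctrl mouse and Slc12a1 in each db/db mouse. The 6 podocyte markers, led by Podxl in each Ctrl mouse, summed to between 80.6 (YHY 1) and 255.6 (Model 1). Adipocyte markers stood at or near 0, with at most 1.33 summed CPM (Model 2), and 5 lymphoid markers reached at most 2.28 (Ctrl 1).

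By length, Ccn2 was the most abundant member and Tgfb2 the least. Mean FPKM over the 12 mice was 23.9 for Ccn2, 5.12 for Tgfbr1, 4.81 for Tgfbr2, 4.14 for Smad3, 3.19 for Tgfb1, 3.12 for Smad7, 1.15 for Smad2, 0.484 for Tgfb3 and 0.181 for Tgfb2. Ccn2 lay above every other member in all 12 mice, since its lowest FPKM was 12.4 (a Ctrl mouse) and the highest of any other member was 7.89 (Tgfbr2, also in Ctrl). The neighbours Tgfb1 and Smad7 had ranges that met in each group, and stood at 2.45 ± 0.163 and 2.77 ± 0.406 FPKM in Ctrl mice, 3.61 ± 0.325 and 3.00 ± 0.342 for Model, and 3.51 ± 1.17 and 3.58 ± 1.24 for YHY (SD, n = 4). The ranges of Tgfb3 and Tgfb2 FPKM also met in Model, at 0.304 to 0.935 and 0.118 to 0.329, and in YHY, at 0.271 to 0.550 and 0 to 0.283. In Ctrl they did not, at 0.404 to 0.582 for Tgfb3 and 0.114 to 0.294 for Tgfb2. Among other neighbours in this order, ranges met for Tgfbr2 and Smad3 in Model and YHY, for Smad3 and Tgfb1 in YHY, and for Smad2 and Tgfb3 in Model. Tgfbr1 (4.48 to 6.03) and Tgfbr2 (2.34 to 5.92) met in YHY. Some members further apart met too, such as Tgfbr1 and Smad3 in each group.

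The order of the 2 receptors turned over between groups. In Ctrl, Tgfbr2 FPKM ranged from 6.98 to 7.89 and Tgfbr1 FPKM from 4.53 to 5.45, so Tgfbr2 was the higher. In Model, Tgfbr2 FPKM ranged from 3.03 to 4.35 and Tgfbr1 FPKM from 4.56 to 5.85, so Tgfbr1 was the higher. The ratio of Tgfbr2 to Tgfbr1 FPKM, which is free of any scaling between libraries because both values come from 1 library, was 1.45, 1.54, 1.61 and 1.38 in Ctrl 1 to 4, 0.880, 0.664, 0.595 and 0.735 in Model 1 to 4, and 1.07, 0.449, 0.476 and 0.568 in YHY 1 to 4. All 8 db/db mice lay below all 4 Ctrl mice in this ratio, and YHY 1 was the only db/db mouse in which Tgfbr2 exceeded Tgfbr1. The ratio was chosen after the values were seen and was not tested.

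Sequence just upstream of the transcription start was read for the ligands and receptors, so that a ligand and a receptor called in Model against Ctrl can be seen beside one that was not called. The table of RefSeq windows at hand (GRCm38.p6) held 5 of the 9 members, Tgfb1, Tgfb2, Tgfbr1, Tgfbr2 and Smad3; windows of Tgfb3, Smad2, Smad7 and Ccn2 were not in that table and were not read. Each line gives 250 bases, 5′ to 3′ on the gene's own strand and ending at the base before the start, with capitals marking the letters of any motif searched: Tgfb1 at chr7:25686752-25687001 (+), Tgfb2 at chr1:186705990-186706239 (-), Tgfbr1 at chr4:47352972-47353221 (+, the first of its windows) and Tgfbr2 at chr9:116175364-116175613 (-).
Tgfb1: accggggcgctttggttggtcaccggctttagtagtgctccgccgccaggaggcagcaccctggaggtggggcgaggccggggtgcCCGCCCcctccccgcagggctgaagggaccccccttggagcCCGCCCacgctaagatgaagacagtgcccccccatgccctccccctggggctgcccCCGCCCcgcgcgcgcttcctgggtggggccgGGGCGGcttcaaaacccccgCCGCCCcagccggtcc
Tgfb2: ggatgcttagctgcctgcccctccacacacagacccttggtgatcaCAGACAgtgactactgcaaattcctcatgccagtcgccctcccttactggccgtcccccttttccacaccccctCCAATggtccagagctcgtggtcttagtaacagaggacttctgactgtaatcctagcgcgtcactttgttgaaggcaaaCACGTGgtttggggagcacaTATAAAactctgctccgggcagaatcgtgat
Tgfbr1: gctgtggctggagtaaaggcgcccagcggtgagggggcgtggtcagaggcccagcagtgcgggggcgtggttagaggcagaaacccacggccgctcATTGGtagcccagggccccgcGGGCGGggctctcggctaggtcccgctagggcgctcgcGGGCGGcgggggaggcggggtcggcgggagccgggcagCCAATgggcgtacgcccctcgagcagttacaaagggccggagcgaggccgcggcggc
Tgfbr2: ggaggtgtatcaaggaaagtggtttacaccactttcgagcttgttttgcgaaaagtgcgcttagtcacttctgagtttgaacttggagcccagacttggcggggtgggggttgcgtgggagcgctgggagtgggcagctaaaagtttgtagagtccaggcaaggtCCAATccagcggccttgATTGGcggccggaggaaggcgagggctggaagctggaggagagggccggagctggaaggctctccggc
The 9 motifs were searched on both strands in all 32841 windows of this length, and none contains another. The GC box GGGCGG was present in 32.7% of all windows, the CCAAT box CCAAT in 33.9%, the TATA box TATAAA in 12.4%, the E-box CACGTG in 6.02%, the Smad palindrome GTCTAGAC in 0.167%, the Smad element CAGACA in 17.1%, the AP-1 site TGANTCA in 6.75%, the cyclic AMP element TGACGTCA in 1.55% and the ETS core CCGGAA in 12%. The Tgfb1 window held 5 GC boxes, none of the other motifs, 75.2% G or C and 21 CpG pairs, beside medians of 52.4% and 6 over all windows. The Tgfb2 window held no GC box but a TATA box 31 bases before the start, an E-box at 51, a CCAAT box at 130 and a Smad element at 204, with 53.6% G or C and 8 CpG pairs. The first Tgfbr1 window held 2 GC boxes and 2 CCAAT boxes in 74.8% G or C with 29 CpG pairs. Another Tgfbr1 window, at chr4:47385966-47386215 (+), held a Smad element at 203 and none of the other motifs, in 52.8% G or C with 3 CpG pairs. The Tgfbr2 window held 2 CCAAT boxes and no GC box in 58.4% G or C with 12 CpG pairs. These matches describe letters in a window and nothing more.

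3 comparisons were made in 1 edgeR quasi-likelihood fit of all 12 mice, with P adjusted by Benjamini-Hochberg over 17431 genes and a call at an adjusted P under 0.05. Model against Ctrl asks what differs in diabetic kidney, YHY against Model what differs after the decoction, and YHY against Ctrl how far treated db/db kidneys stand from controls. The comparisons share mice, so their values are set side by side and not counted as separate support. In Model against Ctrl, 2 of 9 members were higher (Tgfb1 and Ccn2), where 19.6% of all genes tested were higher, and 2 of 9 were lower (Tgfbr2 and Smad2), where 18.5% of all genes were lower. Counts of that size are near the background of the comparison, so they say nothing particular about the members as a set. In YHY against Model, edgeR called 0 of 9 members, where 5.63% of all genes were higher and 7.62% lower. The count was also 0 at an unadjusted P under 0.05 and 0 by DESeq2. In YHY against Ctrl, 1 of 9 members was higher (Tgfb1), where 26.1% of all genes were higher, and 2 of 9 were lower (Tgfbr2 and Smad2), where 24.2% were lower.

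**Figure D1:**
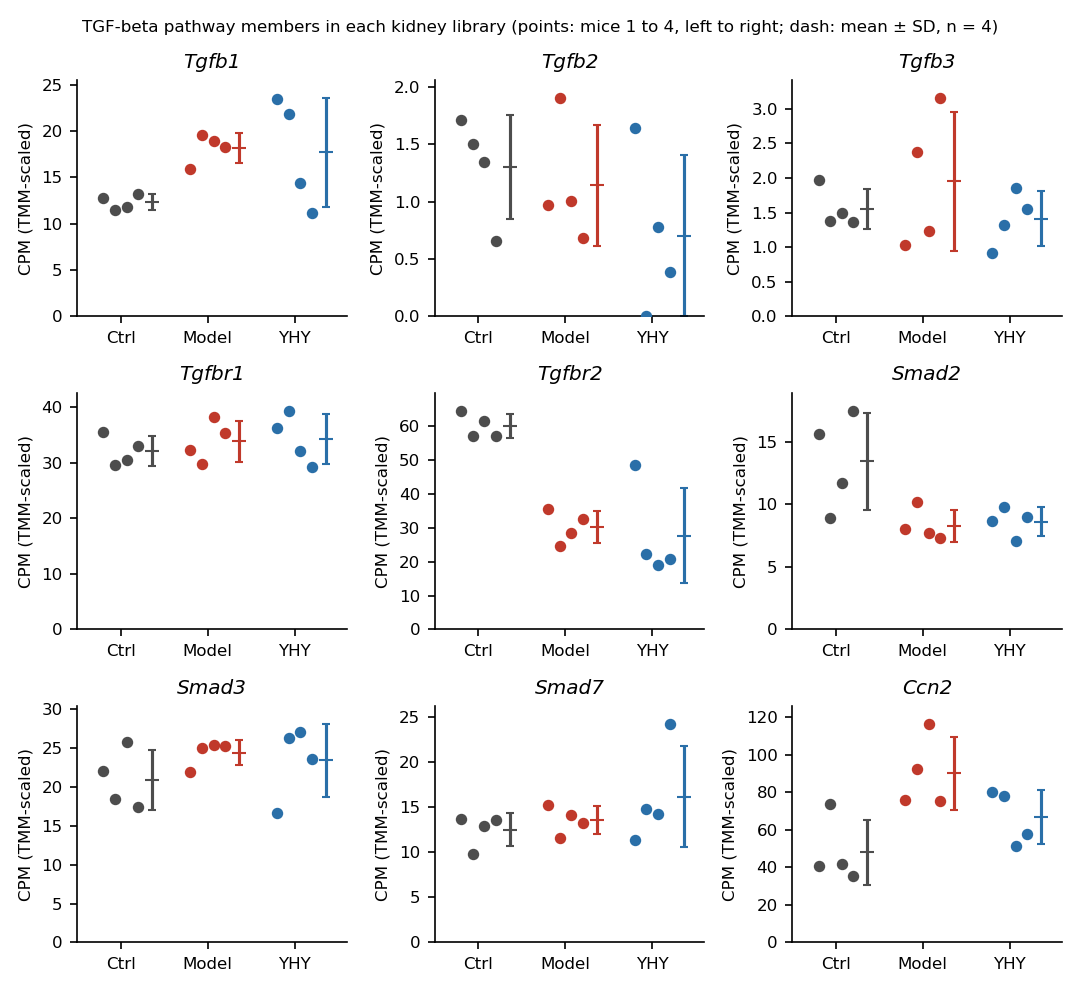
TMM-scaled CPM (y axis) of the 9 members in each kidney library by group (x axis), points for mice 1 to 4 from left to right and a dash with bar for the mean ± SD (n = 4). Tgfbr2 falls from a mean of 60.1 CPM in Ctrl to 30.3 in Model and 27.7 in YHY, with YHY 1 at 48.5, while Tgfbr1 stays between 29.3 and 39.4 in all 12 mice.

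The plot of CPM by mouse shows 3 shapes: a member whose TMM-scaled level is alike in all groups (Tgfbr1), members on which db/db and Ctrl mice part (Tgfbr2, and with overlap Smad2), and members with 1 mouse apart from the rest of its group by Dixon's test (Ccn2 in Ctrl, Smad3 in Model, Tgfbr2 in YHY). These shapes hold for that scaling. Per 1000000 nuclear counts without TMM, Tgfbr1 stood at 41.4 to 54.7 in Ctrl and at 55.5 to 81.2 in db/db mice, with no overlap, and for Smad2 Ctrl 2 (12.5) was the lowest of all mice. In whole tissue, fewer cells of a type and less RNA per cell cannot be told apart, and this holds for every level given here.

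Among the ligands, Tgfb1 was the one that differed. Tgfb1 (ENSMUSG00000002603, GRCm39 chr7:25386427-25404502, + strand) encodes the ligand most studied in kidney scarring. Its CPM was 12.8, 11.5, 11.9 and 13.2 in Ctrl 1 to 4, 15.9, 19.6, 19.0 and 18.3 in Model 1 to 4, and 23.5, 21.8, 14.4 and 11.2 in YHY 1 to 4. All 4 Model mice lay above all 4 Ctrl mice, while the YHY mice split, with YHY 1 and YHY 2 above every Model mouse and YHY 4 below every Ctrl mouse; per 1000000 nuclear counts without TMM, YHY 4 (21.2) lay within Ctrl (16.1 to 21.9). Tgfb1 was 1.47 times higher in Model than in Ctrl (log2 0.56, SE 0.20, 95% interval 0.13 to 0.98, adjusted P 0.0381, n = 4 against 4), and a two-sided exact permutation test gave P 0.0286, the smallest that 4 against 4 mice can give.

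This Tgfb1 call in Model against Ctrl was a narrow one. It ended when any 1 mouse of either group was left out, with adjusted P of 0.0967, 0.0836, 0.121 and 0.0804 without Ctrl 1, 2, 3 and 4 and of 0.0558, 0.0926, 0.0835 and 0.0750 without Model 1, 2, 3 and 4. The log2 difference moved less, from 0.49 without Ctrl 3 to 0.56 without Model 1. With libraries scaled by their total alone in place of TMM, the Tgfb1 difference was 0.11 (log2). That scaling moved the median of all genes in Model against Ctrl from 0.04 to -0.39. Over the 24 alternatives run, the adjusted P of Tgfb1 ranged from 0.00383 to 0.732, and it was called in 12.

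Between YHY and Model, Tgfb1 differed by -0.04 (log2, SE 0.20, 95% interval -0.46 to 0.39, adjusted P 0.929). Between YHY and Ctrl it was higher by 0.52 (log2, SE 0.20, adjusted P 0.0412), though 1 of 4 YHY mice lay below Ctrl and the exact permutation P was 0.171. That call was lost without any 1 of the Ctrl mice, any 1 of the Model mice, YHY 1 or YHY 2, with a log2 difference of 0.34 without YHY 1 and 0.40 without YHY 2. Its adjusted P over 24 alternatives ranged from 0.00387 to 0.794, with a call in 7.

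Tgfb2 and Tgfb3, the other ligands, were close to the limit of what these libraries can count. Tgfb2 (ENSMUSG00000039239) had between 0 counts (YHY 2) and 71 counts per library and ranged from 0 to 1.91 CPM. Tgfb3 (ENSMUSG00000021253) had 24 to 82 counts and ranged from 0.916 to 3.16 CPM. Neither passed the test in any comparison, and the intervals were wide. In Model against Ctrl the interval was -1.66 to 1.27 (log2) for Tgfb2 and -0.52 to 1.17 for Tgfb3. A 2-fold change of Tgfb2 in either direction thus lay within its interval. Its SE was 0.69 in this fit and 0.43 with only the 8 mice compared, and the part of depth was not tested.

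Of the receptors, Tgfbr2 differed and Tgfbr1 did not pass the test. Tgfbr2 (ENSMUSG00000032440, GRCm39 chr9:115913361-116004428, - strand) encodes the receptor that binds the ligand first. Its CPM was 64.6, 57.2, 61.4 and 57.2 in Ctrl 1 to 4, 35.6, 24.8, 28.5 and 32.5 in Model 1 to 4, and 48.5, 22.2, 19.1 and 20.8 in YHY 1 to 4. Every db/db mouse, treated or not, lay below every Ctrl mouse, and YHY 1 stood far above the other 3 YHY mice, which lay below every Model mouse. Per 1000000 nuclear counts without TMM, YHY 1 had 108.8, above the Ctrl mice (80.0 to 99.3), while the other 7 db/db mice lay below them (39.5 to 66.8). In Model, Tgfbr2 fell by 0.99 (log2, SE 0.24, 95% interval -1.50 to -0.47, adjusted P 0.00456, exact permutation P 0.0286), which is 1.98 times lower. In YHY, Tgfbr2 was 2.17 times lower than in Ctrl (SE 0.24 and 95% interval -1.63 to -0.61 on the log2 scale, adjusted P 0.00119, exact permutation P 0.0286).

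Tgfbr2 was called lower against Ctrl in all 24 alternatives of both comparisons, with adjusted P from 6.69e-05 to 0.0198 in Model and from 2.99e-06 to 0.00898 in YHY. YHY against Model gave a Tgfbr2 difference of -0.13 (log2, SE 0.24, 95% interval -0.65 to 0.38, adjusted P 0.771) with all mice. Without YHY 1, whose CPM of 48.5 stood apart, it was -0.56 (log2, SE 0.15, adjusted P 0.0299), a call. The direction turned with the 9 mice of the authors' group means (0.09, log2) and without YHY 3 (0.005). The adjusted P of this Tgfbr2 comparison ranged from 0.0299 to 0.993 over its 24 alternatives, and the fit without YHY 1 was the only one with a call.

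Tgfbr1 (ENSMUSG00000007613) encodes the kinase that carries the signal inward. Its CPM ranged from 29.6 to 35.6 for Ctrl, 29.8 to 38.2 for Model and 29.3 to 39.4 for YHY, and the groups overlapped throughout. Its interval in Model against Ctrl, -0.22 to 0.36 (log2), leaves out a fall as large as that fitted for Tgfbr2.

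**Figure D2:**
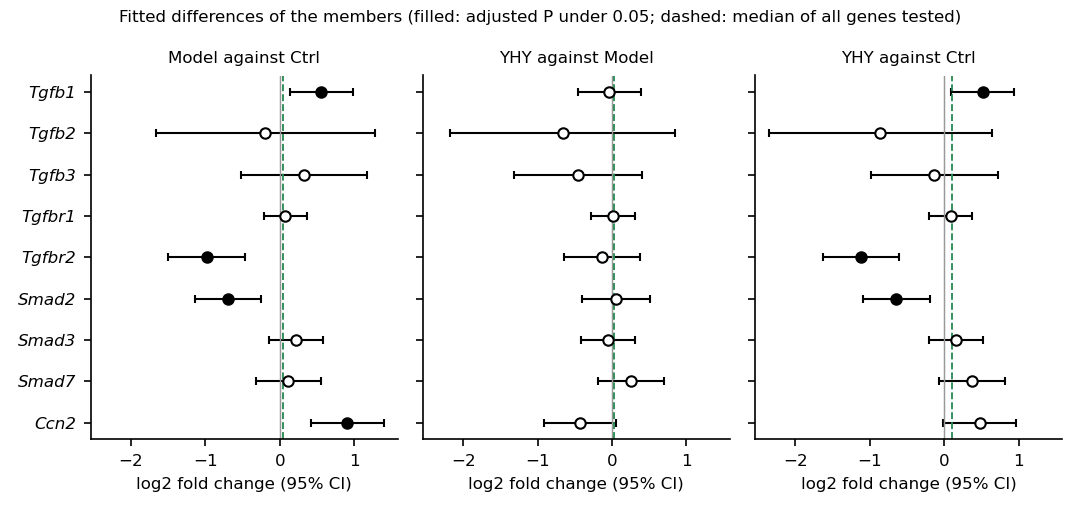
Fitted log2 fold change (x axis) with 95% confidence interval for each member (y axis) in the 3 comparisons of 4 against 4 mice; filled points were called by edgeR and the dashed line is the median of all genes tested. In Model against Ctrl Tgfbr2 (-0.99) and Smad2 (-0.70) lie left of 0 and Tgfb1 (0.56) and Ccn2 (0.91) right of it, and in YHY against Model no point is filled.

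Of the receptor-activated Smads, Smad2 was lower in db/db kidneys and Smad3 did not pass the test. Smad2 (ENSMUSG00000024563, GRCm39 chr18:76374651-76444034, + strand) had a CPM of 15.6, 8.93, 11.7 and 17.5 in Ctrl 1 to 4, 8.02, 10.2, 7.67 and 7.31 in Model 1 to 4, and 8.66, 9.79, 7.04 and 8.95 in YHY 1 to 4. The Ctrl mice were spread widely, and Ctrl 2 lay within the range of both db/db groups while the other 3 lay above it. Smad2 fell by 0.70 in Model (log2, SE 0.21, 95% interval -1.15 to -0.25, adjusted P 0.0164), which is 1.62 times lower, with an exact permutation P of 0.0571. In YHY against Ctrl it fell by 0.64 (log2, SE 0.21, adjusted P 0.0184, exact permutation P 0.0857), and in YHY against Model it differed by 0.05 (log2, SE 0.21, 95% interval -0.40 to 0.51, adjusted P 0.905).

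The Smad2 call in Model against Ctrl ended without Model 4 (log2 -0.64, adjusted P 0.0513) and in YHY against Ctrl without YHY 3 (log2 -0.56, adjusted P 0.0549). Over 24 alternatives the adjusted P of Smad2 ranged from 0.00121 to 0.0513 in the first and from 0.00115 to 0.0549 in the other, with a call in 23 of each. Scaling by total counts alone gave larger Smad2 differences, of -1.16 in Model and -1.11 in YHY against Ctrl (log2).

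Smad3 (ENSMUSG00000032402), which binds DNA directly, ranged from 17.4 to 25.8 CPM over Ctrl mice, from 22.0 to 25.4 over Model mice and from 16.6 to 27.1 over YHY mice. Per 1000000 nuclear counts without TMM, the Ctrl range was 25.8 to 38.9, that of Model 39.0 to 51.9 and that of YHY 37.3 to 61.2. By length Smad3 exceeded Smad2 in every mouse, with a ratio of Smad2 to Smad3 FPKM of 0.285 to 0.634 for Ctrl, 0.183 to 0.256 for Model and 0.164 to 0.329 for YHY. The Model ratios all lay below the Ctrl ratios, while those of YHY met them through YHY 1. A ratio of Tgfb1 to Tgfb3 FPKM overlapped between all groups, at 4.37 to 6.51 for Ctrl, 3.89 to 10.3 for Model and 4.83 to 17.2 for YHY. These ratios were not planned and were not tested.

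Smad7 (ENSMUSG00000025880), the inhibitory Smad that blocks the receptor and marks it for breakdown, is itself induced by the pathway. Its CPM ranged from 9.80 to 13.7 for Ctrl, 11.6 to 15.2 for Model and 11.4 to 24.3 for YHY, with YHY 4 alone above 16. No comparison of Smad7 passed the test, and YHY against Ctrl came to 0.37 (log2, 95% interval -0.07 to 0.81, adjusted P 0.149), and to 0.10 without YHY 4. Per 1000000 nuclear counts without TMM, the db/db mice (22.4 to 46.1) lay above the Ctrl mice (13.7 to 22.3).

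Ccn2 (ENSMUSG00000019997, GRCm39 chr10:24471340-24474581, + strand), formerly known as connective tissue growth factor, encodes a secreted matrix protein that TGF-beta induces. Its CPM was 41.0, 73.9, 42.0 and 35.5 in Ctrl 1 to 4, 76.1, 92.3, 117 and 75.5 in Model 1 to 4, and 80.2, 78.1, 51.3 and 57.6 in YHY 1 to 4. Ctrl 2 stood far above the other Ctrl mice yet just below the lowest Model mouse, so Model and Ctrl did not overlap, and the YHY mice lay between the other 3 Ctrl mice and the highest Model mice. Per 1000000 nuclear counts without TMM, all YHY mice (109.3 to 179.9) and all Model mice (134.9 to 219.0) lay above the Ctrl mice (58.6 to 103.4). Ccn2 was 1.88 times higher in Model than in Ctrl (log2 0.91, SE 0.23, 95% interval 0.42 to 1.40, adjusted P 0.00576, exact permutation P 0.0286). With libraries scaled by their total alone it was 0.49 (log2, adjusted P 0.0767) and no longer called, and over 24 alternatives the adjusted P ranged from 0.000421 to 0.0767 with a call in 23.

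In YHY, Ccn2 stood at 66.8 ± 14.5 CPM, between 48.1 ± 17.4 in Ctrl and 90.1 ± 19.3 in Model (SD, n = 4). Against Model the Ccn2 difference was -0.43 (log2, SE 0.23, 95% interval -0.92 to 0.05, adjusted P 0.228, exact permutation P 0.171), which did not pass the test in any of 24 alternatives and came to -0.29 without Model 3. Against Ctrl it was 0.47 (log2, SE 0.23, adjusted P 0.0969) with all mice and 0.75 (log2, SE 0.20, adjusted P 0.00678) without Ctrl 2, whose Ccn2 CPM of 73.9 stood apart. Without Ctrl 4 this Ccn2 difference came to 0.29 (log2, adjusted P 0.336), and by total counts alone to 0.07. The adjusted P of this last Ccn2 comparison ranged from 0.00535 to 0.814 over 24 alternatives, with a call in 4.

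**Figure D3:**
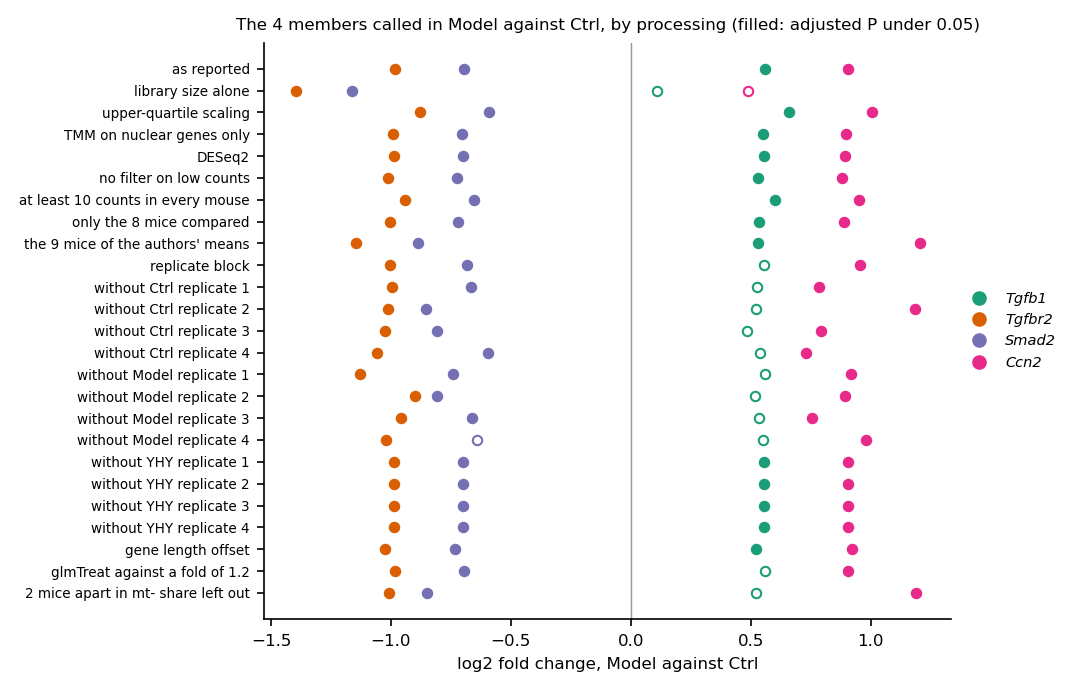
Log2 fold change of Model against Ctrl (x axis) for the 4 members called in it, as reported and under each alternative or left-out mouse (y axis); filled points have an adjusted P under 0.05. Tgfbr2 stays between -1.40 and -0.88 and filled throughout, while Tgfb1 runs from 0.11 to 0.66 and is open in 12 of 24 alternatives.

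The plot by processing shows that all 4 of these members kept their direction under every alternative run. Scaling was the choice that moved them most: by total counts alone, all 4 shifted left together with the median of all genes. In that setting 21.4% of the genes called in Model against Ctrl were higher, in place of 51.5%, and in YHY against Ctrl 28.4% in place of 51.9%, where the median moved from 0.10 to -0.33. Upper-quartile scaling moved the median the other way, to 0.14 in Model and 0.22 in YHY against Ctrl.

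The mitochondrial share moved with the db/db groups, as did some cell type markers. With the mt- genes left out of library sizes and of the TMM factors, the same 4 members were called in Model against Ctrl, at log2 differences of 0.55 for Tgfb1, -0.99 for Tgfbr2, -0.70 for Smad2 and 0.90 for Ccn2. Of 6 mesangial, fibroblast and pericyte markers, 4 were higher in Model than in Ctrl, beside 19.6% of all genes, their median difference being 0.61 (log2) beside 0.04 for all genes. Their summed CPM was 142.8, 133.6, 131.2 and 98.7 in Ctrl 1 to 4, 162.2, 236.0, 188.4 and 157.6 in Model 1 to 4, and 264.8, 251.9, 186.6 and 128.2 in YHY 1 to 4. Dcn was the most abundant of them in the Ctrl mice and Model 2, Pdgfrb in YHY 4 and Pdgfra in the other 6, and none was at 0 in any library. All 4 Model sums lay above all Ctrl sums, and the YHY sums overlapped with both.

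Of 5 collecting duct markers, 3 were lower in Model, beside 18.5% of all genes, with a median difference of -1.18 (log2). Their summed CPM was 986.5, 700.9, 698.3 and 1588 in Ctrl 1 to 4, 630.9, 377.0, 471.9 and 430.4 in Model 1 to 4, and 673.3, 292.1, 461.8 and 251.3 in YHY 1 to 4. Aqp2 led this list and no marker was at 0. All 4 Model sums lay below all Ctrl sums. Of 6 endothelial markers 1 was higher in Model, a share near the 19.6% of all genes, none was at 0, and Emcn was the most abundant in all mice but YHY 2 and YHY 4 (Ehd3). Their summed CPM was 204.0, 140.1, 199.1 and 201.6 in Ctrl 1 to 4, 247.3, 204.7, 201.3 and 177.0 in Model 1 to 4, and 288.1, 176.9, 216.5 and 167.1 in YHY 1 to 4, and the 3 groups overlapped.

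Markers of 4 more parts of the nephron were also called in Model against Ctrl, where 19.6% of all genes were higher and 18.5% lower. Of 3 distal tubule markers 1 was higher in Model (median 0.62, log2), with a summed CPM of 355.6, 547.6, 313.2 and 309.3 in Ctrl 1 to 4, 729.3, 666.2, 696.5 and 687.7 in Model 1 to 4, and 433.2, 745.3, 378.7 and 451.2 in YHY 1 to 4. Calb1 was the most abundant of the list in the Ctrl mice and Model 1 and Slc12a3 in the other 7, and all Model sums lay above all Ctrl sums. Of 3 markers of the loop of Henle 2 were lower (median -1.29), with sums of 1769, 968.3, 2058 and 2056 in Ctrl 1 to 4, 1025, 851.2, 665.4 and 1011 in Model 1 to 4, and 1247, 812.9, 1929 and 1118 in YHY 1 to 4, so that Ctrl 2 lay among the Model mice. Of 6 proximal tubule markers 2 were lower (median -0.34), with sums of 3625, 4945, 3871 and 3087 in Ctrl 1 to 4, 3180, 3125, 3364 and 2471 in Model 1 to 4, and 1284, 2964, 1846 and 3800 in YHY 1 to 4. Of 6 podocyte markers 2 were higher (median 0.56), with sums of 112.8, 126.7, 155.3 and 145.9 in Ctrl 1 to 4, 255.6, 130.0, 149.4 and 105.0 in Model 1 to 4, and 80.6, 128.8, 85.7 and 159.1 in YHY 1 to 4. No marker of these 4 lists was at 0 in any library.

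Of the remaining lists, smooth muscle had 1 of 5 markers higher in Model, platelets 1 of 4, and myeloid cells 1 of 6 higher and 2 lower, beside 19.6% and 18.5% of all genes.

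Marker calls in YHY against Ctrl stand beside 26.1% of all genes higher and 24.2% lower. Lower were 4 of 5 collecting duct markers, 3 of 6 of the proximal tubule, 2 of 3 of the loop of Henle and 1 each of the distal tubule, podocytes and myeloid cells. Higher were 3 of 6 mesangial, fibroblast and pericyte markers, 3 of 6 of podocytes, 2 of 6 endothelial, 2 of 6 myeloid, 2 of 4 of platelets and 1 each of the proximal tubule, distal tubule and smooth muscle. In YHY against Model, beside 5.63% of all genes higher and 7.62% lower, 1 of 3 distal tubule markers (list median -0.92, log2) and 1 of 5 collecting duct markers (-0.24) were lower and 1 of 5 smooth muscle markers (0.07) was higher. The part of any of these cell types in the levels of Tgfb1, Tgfbr2, Smad2 and Ccn2 was not tested.

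**Figure D4:**
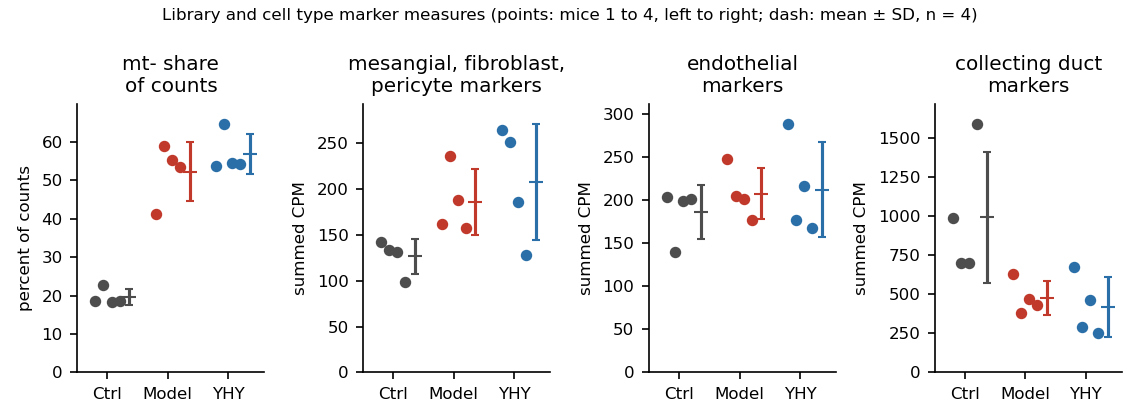
Percent of counts from mt- genes and summed CPM of mesangial, fibroblast and pericyte, endothelial, and collecting duct markers (y axes) in each library by group (x axes), points for mice 1 to 4 from left to right and a dash with bar for the mean ± SD (n = 4). The mitochondrial share is 18.4% to 22.7% in Ctrl and 41.2% to 64.6% in db/db mice, and all collecting duct sums of Model (at most 630.9) lie below those of Ctrl (at least 698.3).

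The members sit among other genes of the pathway, counted in 6 lists. Each count is to be read against all genes tested, of which 19.6% were higher and 18.5% lower in Model against Ctrl and 5.63% higher and 7.62% lower in YHY against Model, and no count is taken as particular to its list. Of 17 genes that make, store or release the ligand, 4 were higher in Model and 3 lower, shares near those of all genes, with a median difference of 0.26 (log2) beside 0.04 for all genes. Lrrc32, which tethers latent ligand to the cell surface, was 2.31 times higher (log2 1.21, SE 0.17, adjusted P 7.91e-05), and Ltbp3, which anchors it in the matrix, 1.75 times higher (log2 0.81, SE 0.17, adjusted P 0.00154). All 3 genes called lower were integrin subunits that release the ligand from its latent form. Itgb8 fell by 1.60 (log2, SE 0.27, adjusted P 0.00029), Itgb6 by 0.90 (SE 0.16, adjusted P 0.00053) and Itgav by 0.62 (SE 0.15, adjusted P 0.00408), and each had all 4 Model mice below all 4 Ctrl mice. Emilin1, a matrix protein that holds back ligand processing, was 1.85 times higher (log2 0.89), a call lost without Ctrl 1, Ctrl 3 or Model 3 (0.74, 0.82 and 0.73). By total counts alone, Ltbp3 (0.37) and Emilin1 (0.43) were not called. Over 24 alternatives Ltbp3 was called in 23 and Emilin1 in 20.

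In YHY against Model, 2 of these 17 ligand genes were lower, beside 7.62% of all genes. The median of the 17 was -0.07 (log2) beside 0.02 for all genes. Itgb6 CPM was 27.6, 34.3, 32.2 and 37.6 in Model 1 to 4 and 21.0, 14.4, 22.5 and 15.4 in YHY 1 to 4, a further step down from 54.9 to 67.6 in Ctrl. Itgb6 fell by 0.84 (log2, SE 0.16, adjusted P 0.00469). Furin, the protease that cuts the ligand from its precursor, had a CPM of 144.3, 151.0, 141.2 and 131.7 in Model 1 to 4 and 75.7, 85.8, 80.1 and 107.0 in YHY 1 to 4. Furin fell by 0.71 (log2, SE 0.14, adjusted P 0.00475), with all 4 YHY mice below all 4 Model mice. Itgb6 by total counts alone came to -0.80 (log2) and was not called, 1 loss in 24 alternatives.

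Of 8 receptor and co-receptor genes, 2 were higher in Model than in Ctrl and 1, Tgfbr2, was lower, beside 19.6% and 18.5% of all genes, with a median of 0.39 (log2). Eng encodes endoglin, a co-receptor of endothelial and mesangial cells. Its CPM was 119.9, 133.3, 117.9 and 116.2 in Ctrl 1 to 4, 246.4, 264.1, 274.8 and 237.8 in Model 1 to 4, and 195.6, 183.8, 173.3 and 171.3 in YHY 1 to 4. The 3 groups of Eng values did not overlap, and YHY lay between the others. Eng was 2.10 times higher in Model than in Ctrl (log2 1.07, SE 0.13, adjusted P 2.7e-05) and fell by 0.50 in YHY against Model (log2, SE 0.13, adjusted P 0.0205). The YHY call of Eng held in 19 of 24 alternatives and ended without Model 3 (log2 -0.47), by total counts alone (-0.48), without a filter on low counts (-0.51), with only the 8 mice compared (-0.45) and when tested against a fold of 1.2. Eng was the 1 of 8 receptor genes called in YHY against Model, where the list's median was 0.13 (log2).

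Vasn, which encodes a secreted TGF-beta trap, was higher in Model by 0.68 (log2, SE 0.25, adjusted P 0.0406). That Vasn call was lost without any 1 of the Ctrl mice or without Model 1, Model 3 or Model 4, at 0.57 to 0.70 (log2), and by total counts alone (0.25), and it held in 14 of 24 alternatives. Tgfbr3, the co-receptor betaglycan, had a mean CPM of 16.1 (Ctrl), 26.0 (Model) and 32.1 (YHY), and Model against Ctrl came to 0.69 (log2, SE 0.28, adjusted P 0.0648). Tgfbr3 was called in 7 of 24 alternatives, among them without YHY 1 and without YHY 4, at 0.68 and 0.69 (log2).

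Of 22 Smads and their regulators, 20 were tested in Model against Ctrl. Of these, 3 were higher and 5 lower, Smad2 among them, beside 19.6% and 18.5% of all genes, with a median of -0.06 (log2). Fkbp1a, which encodes FKBP12, a protein that keeps the type I receptor silent, fell by 0.72 (log2, SE 0.17, adjusted P 0.00404), and Zfyve9, which encodes SARA, the anchor that presents Smad2 and Smad3 to the receptor, by 0.72 (SE 0.17, adjusted P 0.00359). Skil, a repressor of Smad-driven genes that is itself a target, fell by 0.75 (log2, SE 0.22, adjusted P 0.0131). Smad4, the shared partner of the signal-carrying Smads, had a mean CPM of 26.1 (Ctrl), 21.3 (Model) and 23.8 (YHY) and was not called (log2 -0.29, adjusted P 0.137).

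The 3 regulators called higher were the ubiquitin ligases Nedd4l and Smurf1, which mark Smads and receptors for breakdown, and the coactivator Crebbp. Nedd4l was higher by 0.55 (log2, SE 0.16), a call lost without Ctrl 1, Ctrl 3 or Model 4 (0.50, 0.46 and 0.45). Smurf1 was higher by 0.50 (log2, SE 0.17) and lost its call without Ctrl 1, Ctrl 3, Ctrl 4, Model 1, Model 2 or Model 3, at 0.39 to 0.50. Crebbp was higher by 0.43 (log2, SE 0.16) and lost its call without any 1 Ctrl mouse or without Model 2, Model 3 or Model 4, at 0.35 to 0.45. By total counts alone none of the 3 was called, with Nedd4l at 0.10, Smurf1 at 0.07 and Crebbp, its direction turned, at -0.01 (log2). Nedd4l was called in 19 of 24 alternatives, Smurf1 in 14 and Crebbp in 12.

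In YHY against Model, 3 of the 20 tested regulators were higher and 1 was lower, beside 5.63% and 7.62% of all genes, with a median of 0.21 (log2) beside 0.02 for all genes. Skil CPM was 8.14, 8.19, 8.31 and 9.62 in Model 1 to 4 and 16.3, 13.4, 11.1 and 19.8 in YHY 1 to 4, where 3 of 4 lay within the Ctrl range of 9.46 to 18.4. Skil was higher by 0.82 (log2, SE 0.22, adjusted P 0.0221), a call lost without Model 1, Model 2, Model 3 or YHY 4, at 0.66 to 0.80. Zfyve9 was higher by 0.58 (SE 0.17, adjusted P 0.0354) and Trim33, a ubiquitin ligase of Smad4, by 0.50 (SE 0.15, adjusted P 0.0406), while Fkbp1a fell by 0.56 (SE 0.17, adjusted P 0.0415). Over 12 fits that each left out 1 mouse, Zfyve9 kept its call only without Ctrl 2, Model 1, YHY 3 or YHY 4, and was lowest at 0.42 without YHY 1. Trim33 kept it only without Ctrl 2 or YHY 4 (lowest 0.36 without YHY 2), and Fkbp1a only without Model 4, YHY 1 or YHY 3 (nearest to 0 at -0.42 without Model 1). None of these 4 genes was called with scaling by total counts alone. Over 24 alternatives Skil was called in 16, Zfyve9 in 11, Fkbp1a in 8 and Trim33 in 7.

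Of 25 target genes, all tested, 6 were higher in Model than in Ctrl, Ccn2 among them, and 4 were lower, beside 19.6% and 18.5% of all genes, with a median of 0.11 (log2). Vim, which encodes the intermediate filament vimentin, was 1.89 times higher (log2 0.92, SE 0.21, adjusted P 0.00268). Timp3, an inhibitor of matrix proteases, showed the largest change in the list. Its CPM was 269.0, 243.7, 270.9 and 230.9 in Ctrl 1 to 4, 75.6, 73.5, 74.5 and 36.7 in Model 1 to 4, and 158.2, 193.6, 81.1 and 66.8 in YHY 1 to 4. Timp3 fell by 1.96 (log2, SE 0.31, adjusted P 0.000158) in Model, with no overlap, and Tpm1, an actin-binding tropomyosin, fell by 0.58 (SE 0.16, adjusted P 0.00893). Vim was at 0.51 (log2) and not called when scaled by total counts alone, and was called in 23 of 24 alternatives.

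Snai1, Cdkn1a and Tgfbi, 3 other targets called in Model against Ctrl, lost their calls in some alternatives. Snai1, a transcription factor of mesenchymal change, was higher by 1.26 (log2, SE 0.37) and lost its call without Ctrl 1 (1.06). Cdkn1a, the cell cycle inhibitor p21, was higher by 1.10 (log2, SE 0.37) and lost it without Ctrl 2, Ctrl 3 or Model 4 (0.89, 0.80 and 0.82). Tgfbi, a matrix protein named for its induction by TGF-beta, fell by 0.64 (log2, SE 0.24), a call lost without Ctrl 2, Ctrl 4, YHY 3 or any 1 of the Model mice, at -0.70 to -0.57. Snai1 (0.83) and Cdkn1a (0.64) were not called by total counts alone. Over 24 alternatives Snai1 was called in 21, Cdkn1a in 18 and Tgfbi in 11.

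The other 15 of the 25 targets were not called in Model against Ctrl. Col1a2 had all 4 Model mice (55.5, 98.0, 79.2 and 58.2 CPM) above all 4 Ctrl mice (54.4, 50.6, 48.8 and 41.6 CPM), with a difference of 0.57 (log2, adjusted P 0.106). Col1a1 went the other way, with all 4 Model mice (13.49, 15.53, 11.74 and 11.03 CPM) below all 4 Ctrl mice (23.61, 15.95, 18.12 and 16.6 CPM). The matrix genes Col1a1 (-0.52, adjusted P 0.25), Col3a1 (0.03, adjusted P 0.96) and Fn1 (0.46, adjusted P 0.447) and the contractile gene Acta2 (0.14, adjusted P 0.534) did not pass the test. These 5, the list's collagens, fibronectin and smooth muscle actin, were named after their values were seen.

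In YHY against Model, 3 of the 25 targets were higher, Skil, Timp3 and Tpm1, beside 5.63% of all genes, with a median of 0.26 (log2). Each of the 3 was lower in Model than in Ctrl, a comparison that shares the Model mice. Timp3 was higher by 0.94 (log2, SE 0.30, adjusted P 0.0474), with YHY 1 and YHY 2 the high mice, and Tpm1 by 0.52 (SE 0.16, adjusted P 0.0385). Over the same 12 fits, Timp3 kept its call only without YHY 3 or YHY 4 (lowest 0.65 without YHY 2), and Tpm1 only without Ctrl 2, YHY 3 or YHY 4 (lowest 0.42 without YHY 1). By total counts alone Timp3 (0.92) and Tpm1 (0.53) were not called, and over 24 alternatives Timp3 was called in 9 and Tpm1 in 8.

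**Figure D5:**
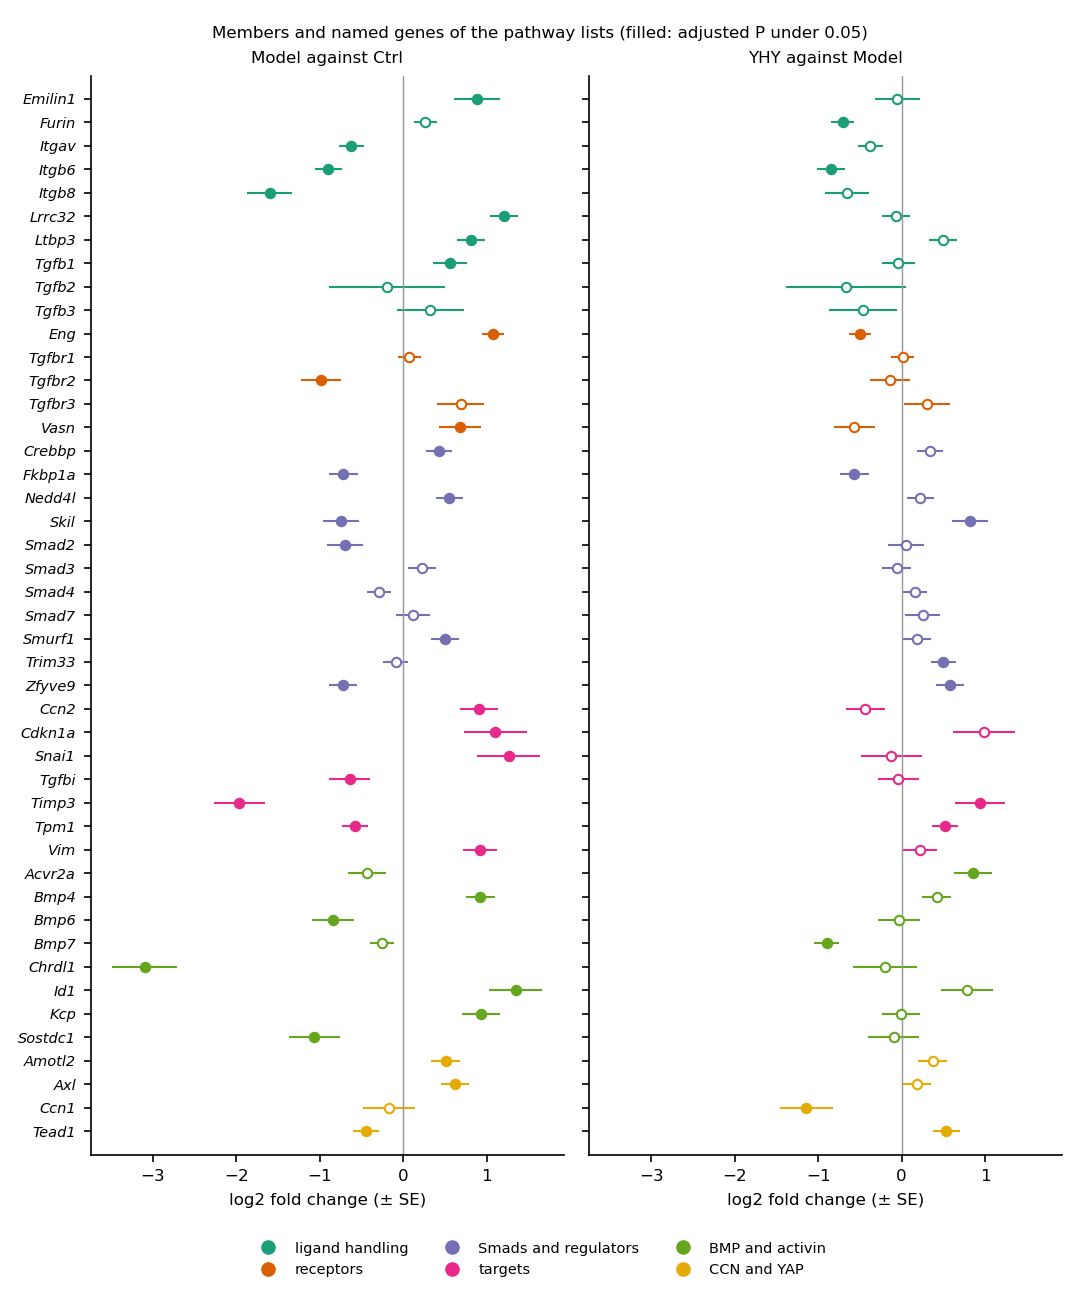
Log2 fold change ± SE (x axis) of the members and of named genes of the 6 pathway lists (y axis, coloured by list) in Model against Ctrl and YHY against Model, 4 against 4 mice; filled points were called by edgeR. Timp3 (-1.96 and 0.94) and Skil (-0.75 and 0.82) change sides between the panels, Eng moves from 1.07 to -0.50, and Itgb6 is lower in both (-0.90 and -0.84).

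The plot of pathway genes shows more filled points in the first panel than in the second. Ccn2 also belongs to a list of 13 CCN and YAP genes, of which 11 were tested; 4 were higher in Model, Ccn2 among them, and 1 was lower, beside 19.6% and 18.5% of all genes, with a median of 0.02 (log2). Axl, a receptor kinase and YAP target, was higher by 0.61 (log2, SE 0.17, adjusted P 0.00892). Ccn1, of the same family as Ccn2, differed by -0.17 in Model against Ctrl (log2, SE 0.31, adjusted P 0.694) and fell by 1.14 in YHY against Model (SE 0.31, adjusted P 0.0262). The YHY call of Ccn1 was lost without Model 2, Model 3, Model 4, YHY 1, YHY 2 or YHY 3, at -1.14 to -0.97 (log2), and held in 16 of 24 alternatives. Of the 11, 1 was higher and 1 lower in YHY against Model, with a median of -0.24 (log2). Axl by total counts alone was at 0.18 (log2) and not called, 1 loss in 24 alternatives.

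Tead1, a transcription factor that YAP binds, was the gene of this list called higher in YHY and the one called lower in Model. Its CPM was 37.0, 29.6, 29.4 and 34.0 in Ctrl 1 to 4, 20.3, 26.7, 26.0 and 22.5 in Model 1 to 4, and 37.7, 41.9, 26.4 and 32.2 in YHY 1 to 4. Tead1 fell by 0.45 in Model against Ctrl (log2, SE 0.16, adjusted P 0.0375), a call kept in 17 of 24 alternatives and lost without Ctrl 1, Model 3 or Model 4 (-0.49 to -0.42). In YHY against Model it rose by 0.53 (log2, SE 0.16, adjusted P 0.038), kept in 12 of 24 and lost without Model 1, Model 3, Model 4, YHY 1 or YHY 2 (0.43 to 0.57). Both comparisons share the Model mice. Amotl2, which encodes a partner of YAP, was higher by 0.51 in Model (log2, SE 0.17, adjusted P 0.0309), a call kept in 13 of 24 and lost without Model 2, Model 4 or any 1 Ctrl mouse (0.38 to 0.54), and by total counts alone it was at 0.06.

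Genes whose pattern over the 12 mice came closest to each called member were found among 12081 genes by the root mean square difference of centred log2 CPM. For Tgfb1, whose own standard deviation was 0.36, they were Gimap6 (0.14), Gab2 (0.15) and Mxra8 (0.16). Nearest to Tgfbr2 (standard deviation 0.63) were Asah1 (0.18), Snu13 (0.21) and Hmgn1 (0.22). Smad2 (0.39) had Zyg11b (0.17), Bicc1 (0.19) and Tlk1 (0.19), and Ccn2 (0.50) had Pggt1b (0.20), Larp4b (0.21) and Znhit2 (0.21). The distances for Tgfbr2 are the smallest beside its own spread.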

How the data were processed

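Kidney messenger RNA of 12 mice was measured by sequencing, and mice were grouped by the sample labels. The authors deposited raw read counts for 57490 genes per mouse, with gene lengths and GRCm39 coordinates. Their processing notes name FastQC 0.11.9, Trimmomatic 0.39, HISAT2 2.2.1, SAMtools 1.12 and featureCounts 2.0.1, and the use of strand in counting is not stated. The authors' comparison tables hold group means as a normalized signal, log2 fold changes, p-values and adjusted p-values; none of these values entered the fits. The deposited group means equal the means of 9 mice, without Ctrl 2, Model 1 and YHY 4, and a fit of those 9 mice was 1 of the alternatives.

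Counts were filtered with filterByExpr, scaled by TMM and fitted with edgeR 4.0.16 (quasi-likelihood, R 4.3.3, limma 3.58.1), 3 groups in 1 fit, with Benjamini-Hochberg adjustment over 17431 genes and a call under 0.05. Intervals are 95% intervals of the fit. The exact permutation test on log2 (CPM + 0.1) is two-sided and has 70 regroupings. FPKM uses the deposited lengths in kb. Alternatives covered scaling, filter, tool (DESeq2 1.42.0), call rule, length and mice. Figures were drawn with matplotlib 3.10.9.

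The members and lists were chosen with earlier results of these data known. Named genes are the members, up to 3 with the largest rise and 3 with the largest fall per pathway list and comparison among those called with a mean count of at least 50, Tgfbr3, Eng, Smad4 and Skil always, and the 3 genes most like each called member. Col1a1, Col1a2, Col3a1, Fn1, Acta2 and marker genes stand outside this rule.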

Additional observations from a re-analysis of the deposited data

Results flagged for a closer look

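In each group of 4 mice, the highest and lowest value were compared with the rest for the members, the named pathway genes, library measures and marker sums. Of 171 groups tested, 12 had 1 mouse far from the other 3, and chance gives about 1 in 20 groups.

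Ctrl 2 accounted for 5 of them. Its Ccn2 was the highest in Ctrl at 73.9 CPM, against 42.0 in the next mouse, and its mitochondrial share the highest at 22.7%, against 18.6%. Its total count was the lowest in Ctrl at 29632718, against 32677732, its endothelial marker sum the lowest at 140.1 CPM, against 199.1, and its Fkbp1a the lowest at 108.2 CPM, against 116.7. Ccn2 in YHY against Ctrl passed the test without this mouse and not with it, as given with the results.

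In Model, Smad3 was lowest in Model 1 at 22.0 CPM (next 25.0), Lrrc32 highest in Model 2 at 42.2 CPM (next 25.9), Skil highest in Model 4 at 9.62 CPM (next 8.31) and Timp3 lowest in Model 4 at 36.7 CPM (next 73.5). In YHY, Tgfbr2 was highest in YHY 1 at 48.5 CPM (next 22.2), the mitochondrial share highest in YHY 2 at 64.6% (next 54.6%) and Id1 highest in YHY 4 at 119.0 CPM (next 43.4). Tgfbr2 in YHY against Model was called without YHY 1 and not with it. What set these mice apart was not tested.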

How the results depend on the processing

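Each result was computed again under scaling, filter, test, call rule and mouse alternatives. For the 9 members, 32 values lost a call and 5 gained one. Where the fold change was estimated again (call-rule alternatives aside), all 161 values of differences that were called kept their sign, and of 457 values of differences that were not called 33 turned sign, 7 of them with library size alone, where in Model against Ctrl Tgfb3 came to -0.12, Tgfbr1 to -0.36, Smad3 to -0.22 and Smad7 to -0.32 (log2). Leaving out 1 mouse gave 5292 to 7093 genes called in Model against Ctrl, 1146 to 2723 in YHY against Model and 7806 to 8915 in YHY against Ctrl, in place of 6631, 2311 and 8762.

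The 2311 genes called in YHY against Model became 1177 with library size alone, 1385 with only the 8 mice compared, 1025 when tested against a fold of 1.2 (glmTreat), 4988 by the paper's limits (fold over 1.2 and unadjusted P under 0.05) and 1146 without Model 3. Members called in Model against Ctrl went from 4 to 2 with library size alone, where Tgfb1 and Ccn2 lost their calls, and ranged from 2 (without Model 4) to 4 over left-out mice. Members called in YHY against Model ranged from 0 to 1 (Tgfbr2 without YHY 1). With library size alone Crebbp reversed in Model against Ctrl, at -0.009 (log2). The cause of these shifts was not tested.

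With the replicate number as a block, 3 members were called in Model against Ctrl and 1920 genes in YHY against Model. Tgfb1 lost its call in Model against Ctrl there (adjusted P 0.0521 by edgeR). Correlations of replicates with the same number ran from -0.24 to 0.23, with 3 of 12 over 0.1. They were not set beside correlations of different numbers, so whether the numbers pair mice was not tested. Without Ctrl 2 and YHY 2, chosen after seeing the data because their mitochondrial share stood apart, 3 members (Ccn2, Tgfbr2 and Smad2) were called in Model against Ctrl and 0 by edgeR in YHY against Model. Tgfb2 had too few counts to be tested at 10 counts in every mouse, and with 4 mice per group its 2-fold differences were not detectable.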

Other observations

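The BMP and activin branch, which signals through other receptors and Smads of the same family, was counted from a list of 33 genes, all tested. In Model against Ctrl 5 were higher and 5 lower, beside 19.6% and 18.5% of all genes, with a median of -0.20 (log2) beside 0.04 for all genes. Chrdl1, which encodes a secreted BMP antagonist, had a CPM of 18.2, 16.2, 17.8 and 21.5 in Ctrl 1 to 4, 1.29, 1.52, 2.74 and 3.08 in Model 1 to 4, and 2.29, 0.553, 3.13 and 1.40 in YHY 1 to 4. All 8 db/db mice lay far below all 4 Ctrl mice, and Chrdl1 fell by 3.10 in Model (log2, SE 0.39, adjusted P 3.03e-05 by edgeR). Bmp4, a ligand, was higher by 0.92 (SE 0.17, adjusted P 0.000711), and Id1, a gene that BMP signals induce, by 1.35 (SE 0.32, adjusted P 0.00342). Kcp, another secreted modulator of BMP signals, was higher by 0.93 (SE 0.23, adjusted P 0.0047). Sostdc1, a BMP antagonist, fell by 1.06 (log2, SE 0.31, adjusted P 0.0123), with overlap of the groups, and Bmp6, a ligand, by 0.84 (SE 0.25, adjusted P 0.0145), a call lost without Model 4 (-0.67).

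Of the 33, 1 in YHY against Model was higher and 1 lower, beside 5.63% and 7.62% of all genes, with a median of 0.07 (log2). Bmp7, a ligand made by kidney tubules that opposes TGF-beta, had a CPM of 42.4, 30.0, 32.4 and 32.0 in Model 1 to 4 and 16.9, 17.9, 20.1 and 18.5 in YHY 1 to 4. Bmp7 fell by 0.90 (log2, SE 0.15, adjusted P 0.00177 by edgeR), was called in all 24 alternatives, and had stood at 34.1 to 47.2 CPM in Ctrl. Acvr2a, an activin receptor, was higher by 0.85 (SE 0.23), a call lost without Model 2, Model 3, Model 4, YHY 2 or YHY 4, at 0.69 to 0.88 (log2), and kept in 15 of 24 alternatives.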
